A study of Homo sapiens with 7 samples.

Results

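The genes described here drive or brake the passage of a cell from G1 into S phase. The list holds 10 genes, chosen by name and not by their values: the D-type cyclins CCND1, CCND2 and CCND3, the E-type cyclins CCNE1 and CCNE2, the Cip/Kip inhibitors CDKN1B and CDKN1C, and the INK4 inhibitors CDKN2A, CDKN2B and CDKN2C. A gene was read from array features (transcript clusters) that the platform annotation gives to exactly 1 gene, and where a gene had several, from the brightest by its mean over all arrays. In this way 9 of the 10 genes were measured, among 17958 genes in all. No cluster carried CDKN2C as its only symbol, so it is not analysed here. CCND1 had 2 clusters and each of the other 8 genes had 1.

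The cells were SKOV3, a human ovarian carcinoma line that the labels class as serous. The labels' cell line field gives SKOV3 for every array, while their source names differ by array and run from SKOV3 to SKOV9. All were stable lentiviral clones kept in OVCA medium with puromycin, given in the labels as 2 mg/ml, and the scramble controls carry the same kind of vector and selection. The 7 Affymetrix Human Gene 1.1 ST arrays are 3 of clones labelled CtBP1 knockdown, 2 of CtBP2 knockdown clones and 2 of scramble control clones. CtBP1 and CtBP2 are related transcriptional co-repressors, and the design text asks which genes they regulate differently. Each array stands for 1 clone, no untransduced cells are among the groups, and nothing says whether the cultures were independent, so the p-values reflect no more than how far these arrays scatter, and that scatter may be technical. Per the labels, knockdown was checked by western blot.

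In G1, mitogens raise the D-type cyclins, which activate CDK4 and CDK6. These kinases phosphorylate the retinoblastoma protein RB1 and release E2F transcription factors, whose targets include the E-type cyclins. Cyclin E with CDK2 then completes RB1 phosphorylation and starts DNA replication. INK4 proteins bind CDK4 and CDK6 and block their pairing with cyclin D, while Cip/Kip proteins bind cyclin-CDK complexes and chiefly inhibit CDK2. CDKN1B, which encodes p27, is controlled largely by protein degradation, so its RNA gives only part of its regulation.

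All values are the authors' deposited log2 signals, on which a difference of 1 is a doubling of the signal. Scramble control 1 stood apart: its correlation over all genes with any other array was 0.926 to 0.941, and 0.971 to 0.993 among the remaining 6. It was the lowest of the 7 arrays for 4 of the 9 measured cyclin and inhibitor genes (CCND3, CCNE1, CCNE2 and CDKN1B), where it was for 32.3% of all genes, and the highest for 2 (CCND2 and CDKN1C), where it was for 30.2%. The knockdown check differed between the targets. On the CtBP2 knockdown arrays CTBP2 had 4.64 and 4.22, against 5.70 and 6.14 on scramble, with no overlap (difference -1.49 ± 0.21, SE of the limma fit, adjusted p = 0.18). On the arrays labelled CtBP1 knockdown CTBP1 had 5.11, 6.13 and 6.13, against 5.69 and 6.37 on scramble, so its signal did not separate them from the controls and they are named by their label throughout. Against the CtBP2 knockdown arrays, with CTBP1 at 6.81 and 6.32, they were lower without overlap (-0.78 ± 0.39, limma adjusted p = 0.766). Their CTBP2 signals of 6.25, 6.31 and 6.27 were above both controls (0.36 ± 0.19, limma adjusted p = 0.734). The gene means of the 10 carcinoma markers ran from 2.63 for CDH1, which was dim on every array (2.36 to 3.27), to 9.15 for ERBB2 (8.52 to 9.58), and KRT18 lay between 7.36 and 8.10, while the 10 fibroblast and endothelial markers lay between 1.22 and 3.32 and, of the leukocyte markers, PTPRC lay between 1.50 and 1.73 (PTPRC was picked as the defining marker after its values were seen, and CD68 reached 7.11).

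The upstream sequences of CCNE1 and CDKN1B are shown because both genes had their highest signals on both CtBP2 knockdown arrays and have a window in the RefSeq promoter table (GRCh38.p14). Each is 1 stretch of 250 bases that ends at the base before the annotated transcript start, 5′ to 3′ on the + strand. CCNE1 is at chr19:29811741-29811990 and CDKN1B at chr12:12717118-12717367. Capitals mark GC boxes (GGGCGG on either strand), the letters bound by SP and many Krüppel-like factors, a family in which several members recruit CtBP.
CCNE1: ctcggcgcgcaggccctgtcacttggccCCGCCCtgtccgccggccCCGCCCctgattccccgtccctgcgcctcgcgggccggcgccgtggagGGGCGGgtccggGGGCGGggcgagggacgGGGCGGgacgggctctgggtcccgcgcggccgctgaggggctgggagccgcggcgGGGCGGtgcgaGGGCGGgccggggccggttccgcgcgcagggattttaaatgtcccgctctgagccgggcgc
CDKN1B: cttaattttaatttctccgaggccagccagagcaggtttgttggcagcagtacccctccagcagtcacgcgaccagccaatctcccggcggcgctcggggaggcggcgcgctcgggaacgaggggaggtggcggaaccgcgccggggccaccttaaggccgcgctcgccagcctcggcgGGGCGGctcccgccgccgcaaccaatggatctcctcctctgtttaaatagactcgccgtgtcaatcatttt

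The CCNE1 stretch held 7 GC boxes, a number reached by 1.12% of 35116 RefSeq stretches cut to the same 250 bases, and the CDKN1B stretch held 1, where 42.6% of all stretches held at least 1. Neither held CACCC, a Krüppel-like factor box found in 54.7% of all stretches, or CACCTG, the E-box bound by the CtBP partners ZEB1 and ZEB2, found in 17.5%. The E2F letters TTTCGCGC, TTTGGCGC, TTTCCCGC and TTTGCCGC, searched on both strands, were absent from both, and at least 1 of them was in 2.79% of all stretches. These are matches of letters only. Of the other measured genes with windows there, the 3 of CCND3 held 5, 2 and 0 GC boxes, the 2 of CDKN2A held 0 and 1, and that of CDKN2B held 2.

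**Figure D1:**
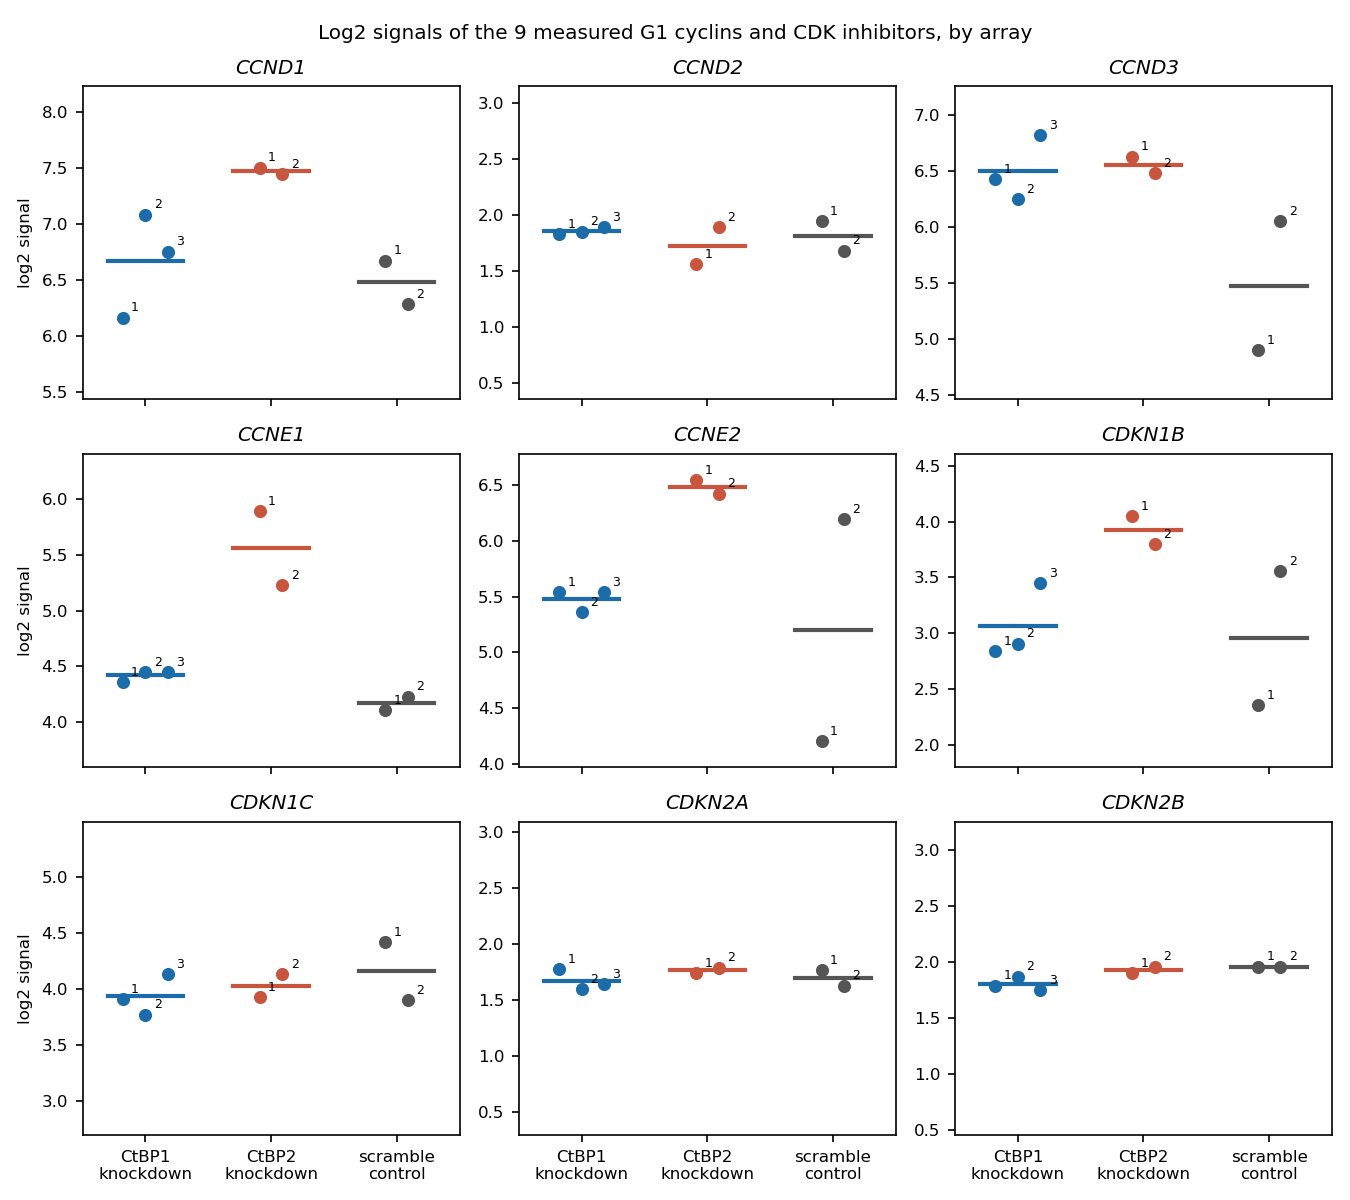
Deposited log2 signal (y axis, with the same span in each panel) of the 9 measured genes on each array, grouped on the x axis, with the clone number beside each point and a bar at the group mean. CCNE1, CCNE2, CCND1 and CDKN1B are highest on both CtBP2 knockdown arrays, while CCND2, CDKN2A and CDKN2B stay within 0.37 over all 7 arrays.

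The D-type cyclins differed from each other in pattern. CCND1 had signals of 6.16, 7.08 and 6.75 in the clones labelled CtBP1 knockdown, 7.50 and 7.44 in the CtBP2 knockdown clones, and 6.67 and 6.28 in the scramble clones. Both CtBP2 knockdown arrays lay above the other 5, and the arrays labelled CtBP1 knockdown spanned both controls. The group means ± SD were 6.66 ± 0.47 (n = 3), 7.47 ± 0.04 (n = 2) and 6.47 ± 0.27 (n = 2), so CtBP2 knockdown came first and the other groups overlapped. The second, dimmer CCND1 cluster did not show this order, with 2.95, 2.81 and 2.76, then 2.81 and 2.81, against 3.53 and 2.74 on scramble.

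CCND3, the D-type cyclin most used in lymphoid and other differentiated cells, followed another order. It gave 6.43, 6.25 and 6.82 in the clones labelled CtBP1 knockdown, 6.63 and 6.48 in the CtBP2 knockdown clones, and 4.90 and 6.05 in the scramble clones. All 5 knockdown arrays exceeded both controls, the knockdown groups overlapped each other, and the controls were 1.15 apart. CCND2 lay between 1.56 and 1.94 on all arrays, with overlap in each of the 3 comparisons.

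Of the E-type cyclins, CCNE1 showed the clearest separation. It gave 4.36, 4.45 and 4.45 in the clones labelled CtBP1 knockdown, 5.89 and 5.23 in the CtBP2 knockdown clones, and 4.11 and 4.23 in the scramble clones. No groups overlapped. CtBP2 knockdown was highest at 5.56 ± 0.46 (SD, n = 2), then the arrays labelled CtBP1 knockdown at 4.42 ± 0.05 (n = 3) and scramble at 4.17 ± 0.08 (n = 2). The 2 CtBP2 knockdown arrays were 0.65 apart, more than the whole span of 4.11 to 4.45 over the other 5 arrays.

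CCNE2, the paralog of CCNE1, had 5.54, 5.36 and 5.54 in the clones labelled CtBP1 knockdown, 6.54 and 6.42 in the CtBP2 knockdown clones, and 4.21 and 6.19 in the scramble clones. CtBP2 knockdown was again above all others, but scramble control 2 was only 0.23 below its lower array on the rounded signals and scramble control 1 was the lowest of all. The controls, 1.98 apart, lay on either side of the arrays labelled CtBP1 knockdown, so the order of those 2 groups was set by which control is read.

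Among the Cip/Kip inhibitors, CDKN1B went with the E-type cyclins. It had 2.84, 2.91 and 3.45 in the clones labelled CtBP1 knockdown, 4.05 and 3.80 in the CtBP2 knockdown clones, and 2.36 and 3.56 in the scramble clones. As for CCNE2, both CtBP2 knockdown arrays were above the other 5 and the controls were far apart, by 1.21. CDKN1C, which encodes p57 and is an imprinted gene, ran the other way on scramble control 1: it had 3.91, 3.77 and 4.13, then 3.93 and 4.13, against 4.42 and 3.90 on scramble, with overlap in all comparisons.

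The INK4 genes CDKN2A and CDKN2B were dim on every array. CDKN2A, whose locus also makes the p53-stabilising protein ARF, lay between 1.60 and 1.79, and CDKN2B, a gene that TGF-beta induces in epithelial cells, between 1.75 and 1.96. With CCND2 they fell within the signals that 22 tissue-restricted genes such as GCG, HBB and CSN2 gave on these arrays (1.39 to 3.80, median of the gene means 1.91). The 3.80 was CRYAA on scramble control 1, and every other value of these genes was at most 3.27. CDKN1B lay in the full range on 6 of 7 arrays, all but CtBP2 knockdown array 1. It was above 3.27 on both CtBP2 knockdown arrays (4.05 and 3.80), CtBP1 knockdown 3 (3.45) and scramble control 2 (3.56). Its differences thus rest at least in part on dim signals. A signal in the range of the tissue-restricted genes does not tell a low transcript level from none, and signals of different clusters give no order of levels between genes. Of the 6 measured neighbours on 9p, KLHL9 (5.36 to 6.18), MLLT3 (4.22 to 5.18) and FOCAD (3.80 to 4.14) reached higher signals. DMRTA1 (1.98 to 2.09), IFNE (1.75 to 2.69) and ELAVL2 (1.68 to 2.08) did not. MTAP and CDKN2B-AS1, also on that list, were not measured. CDKN2B was lower on the 3 arrays labelled CtBP1 knockdown than on the controls, with a difference of -0.16 ± 0.10 (SE of the limma fit), and scramble controls 1 and 2 and CtBP2 knockdown array 2 shared an identical value.

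The 3 comparisons were tested with limma over all 17958 genes, with Benjamini-Hochberg adjustment, and none of the 9 genes passed an adjusted p of 0.05 in any of them. When the arrays labelled CtBP1 knockdown were set against the controls, that threshold called 0% of all genes, with CtBP2 knockdown it called 0.00557% (1 gene, none of these), and between the knockdowns 0%. The unadjusted p was under 0.05 for 4.79%, 10.2% and 7.77% of all genes in the same order. For a single gene, an exact permutation test cannot go below 0.333 with 2 arrays against 2, or 0.2 with 3 against 2 (two-sided), so none was run.

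CtBP2 knockdown against scramble addresses which of these genes depend on CtBP2. All of the separated genes were higher: CCNE1, CCND1, CCND3, CCNE2 and CDKN1B, 5 of 9, where 19.3% of all genes were separated and higher, and 0 were lower, where 21.7% were. In either direction 41% of all genes were separated. Without the dimmest 25% of genes, the shares leaned the same way, with 24.9% separated and higher and 14.5% lower. The median difference of the 9 was 0.96, beside -0.02 over all genes, and it was 0.29 without scramble control 1 and 0.80 without scramble control 2. CCNE1 was 1.39 ± 0.22 higher (SE, 2 arrays against 2), or 2.62-fold, at an unadjusted p of 7.46e-04 and a limma adjusted p of 0.213, and ranked 63 of 17958 by p. CCND1 was 0.99 ± 0.31 higher (1.99-fold, limma adjusted p = 0.42) and CCND3 1.08 ± 0.39 (2.11-fold, limma adjusted p = 0.45), both with an unadjusted p under 0.05, as for CCNE1. That makes 3 of 9 against 7.19% of all genes on the higher side, and 0 of 9 against 2.98% on the lower. CCNE2 was 1.28 ± 0.59 higher and CDKN1B 0.96 ± 0.42 higher, at limma adjusted p of 0.514 and 0.502.

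The control kept decided the size of 3 of these 5 differences. Without scramble control 1, CCNE2 differed by 0.29, CDKN1B by 0.36 and CCND3 by 0.50. Without scramble control 2, which leaves scramble control 1 as the lone control, they differed by 2.27, 1.56 and 1.66 in the same order. CCNE1 kept 1.33 and 1.45 and CCND1 1.19 and 0.80. In the fit without scramble control 2, CCNE1, CCND3, CCNE2 and CDKN1B had limma adjusted p of 0.0279, 0.0177, 0.00626 and 0.0272, a fit in which 22% of all genes passed. That control arm is the single array that stood apart, and its spread is taken from the knockdown groups, so these p-values hold no measure of control variation. CCND1 was 0.33 when both of its clusters were averaged. Without scramble control 1, 7 of the 9 genes had both CtBP2 knockdown arrays above the lone control, where 32.1% of all genes did. Of these, CDKN1C (3.93 and 4.13 against 3.90) and the dim CDKN2A (1.74 and 1.79 against 1.63) lay only slightly above it.

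**Figure D2:**
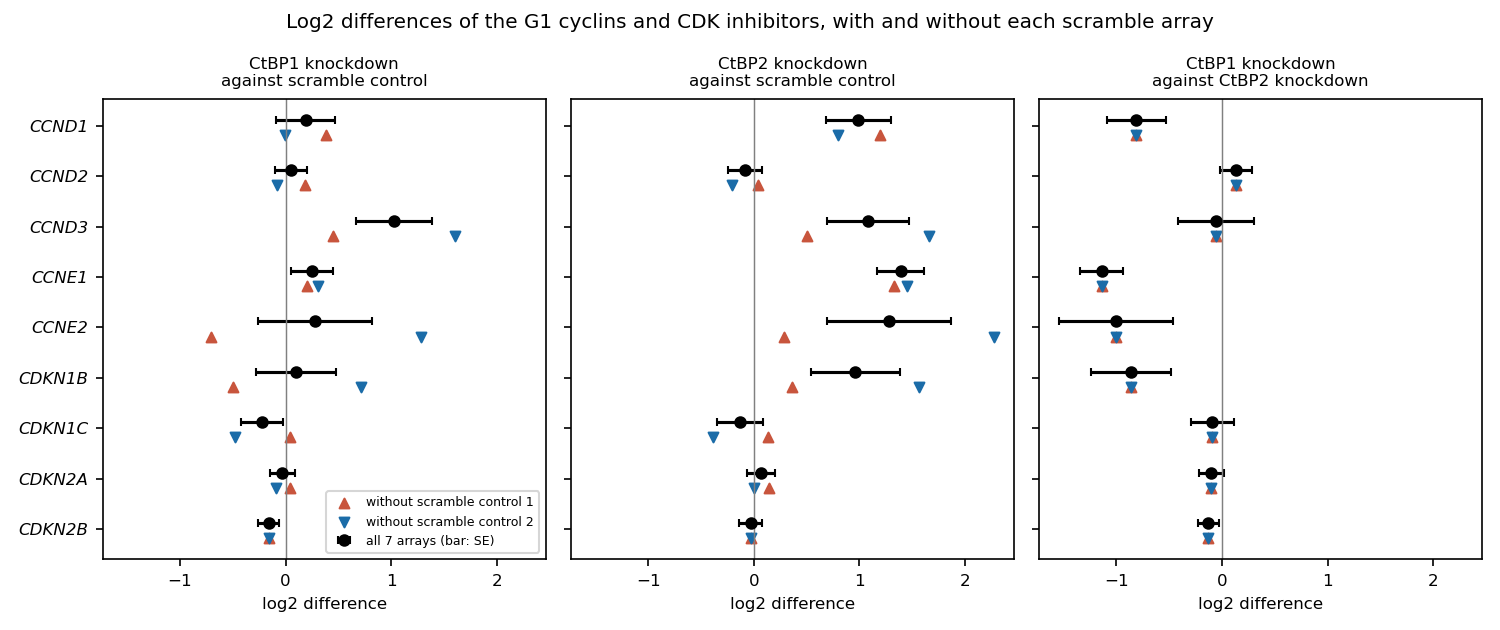
Log2 difference (x axis) of each gene in the 3 comparisons, from all 7 arrays (black circle, bar = SE of the fit) and without scramble control 1 (upward triangle) or 2 (downward triangle). For CCNE2 and CDKN1B the triangles lie far apart against scramble. They coincide in the comparison of the knockdowns, whose differences use no scramble value, although its SE bars include the scatter of the controls.

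The arrays labelled CtBP1 knockdown were set against scramble to ask which of these genes depend on CtBP1. CCND3 was 1.03 ± 0.36 higher (SE, 3 arrays against 2), or 2.04-fold, at an unadjusted p of 0.0278 and a limma adjusted p of 0.734, the 1 gene of 9 with an unadjusted p under 0.05 on the higher side, against 2.87% of all genes, with 0 of 9 on the lower side, against 1.92%. Separated and higher were CCND3 and CCNE1 (0.25 ± 0.20), 2 of 9 beside 6.76% of all genes. Separated and lower was CDKN2B (-0.16 ± 0.10, dim on every array), 1 of 9 beside 7.59%. In either direction that makes 3 of 9, beside 14.4%. The other 6 genes overlapped, with differences from -0.22 ± 0.20 for CDKN1C to 0.28 ± 0.54 for CCNE2. The median over the 9 was 0.10, and it was 0.04 without scramble control 1 and -0.01 without scramble control 2. CCND3 was 0.45 without scramble control 1 and 1.60 (limma adjusted p = 0.0208, again with 1 control array) when scramble control 2 was left out. The sign of CCNE2 depended on the control kept, at -0.71 without scramble control 1 and 1.28 (limma adjusted p = 0.0127) without scramble control 2, where 18.2% of all genes passed. CDKN1B likewise gave -0.50 and 0.71. The 95% interval of the CCNE1 difference was -0.24 to 0.75, and that of CCND1 was -0.51 to 0.88.

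The direct comparison of the knockdowns asks where CtBP1 and CtBP2 differ, and its differences use no scramble array. Lower on the arrays labelled CtBP1 knockdown than on the CtBP2 knockdown arrays were CCNE1, CCND1, CCNE2, CDKN1B and CDKN2B, 5 of 9 without overlap, where 15.8% of all genes were, and 0 were higher, where 16.2% were. In either direction 32% of all genes were separated. Without the dimmest 25% of genes, 19.9% were separated and lower and 13.7% higher. CDKN2B differed by only -0.13 and was dim on every array (1.75 to 1.96). CCNE1 differed by -1.14 ± 0.20 (SE, 3 arrays against 2), a 2.20-fold lower signal, at an unadjusted p of 0.00132 and a limma adjusted p of 0.245. CCND1 differed by -0.81 ± 0.28 (1.75-fold lower, limma adjusted p = 0.553), CCNE2 by -1.00 ± 0.54 (limma adjusted p = 0.794) and CDKN1B by -0.86 ± 0.38 (limma adjusted p = 0.70). CCNE1 and CCND1 had an unadjusted p under 0.05, 2 of 9 beside 5.31% of all genes on the lower side, and 0 of 9 were on the higher side, beside 2.46%. CCND3 differed by -0.06 ± 0.36, with a 95% interval of -0.92 to 0.81, which does not show that its levels were alike. The size of the CCNE1 difference rested in part on CtBP2 knockdown array 1: it was -0.81 without that array and -1.46 without array 2.

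Of the 9 genes, 4 had both CtBP2 knockdown arrays above the other 5 arrays (CCND1, CCNE1, CCNE2 and CDKN1B), where 10.2% of all genes did, and 0 had both below, where 9.08% did. They are 3 cyclin genes and 1 inhibitor of cyclin-CDK complexes. In RNA from whole cultures, more cells in a phase of the cycle and more RNA per cell cannot be told apart.

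The rest of the G1 machinery was read from lists written from textbook knowledge. Of 7 genes for G1 kinases and their activators, 2 were separated and higher on CtBP2 knockdown than on scramble and 0 lower, where 19.3% and 21.7% of all genes were. CDC25A, the phosphatase that activates CDK2, read 5.61 and 5.42 with CtBP2 knockdown, against 3.61 and 4.81 with scramble, a difference of 1.31 ± 0.37 (limma adjusted p = 0.39) that was 0.71 without scramble control 1. CDK6, a partner of the D-type cyclins, had 5.90, 6.70 and 6.18 in the clones labelled CtBP1 knockdown and 7.05 and 7.80 in the CtBP2 knockdown clones, a difference of -1.17 ± 0.33 (limma adjusted p = 0.458), against 6.21 and 6.68 on scramble. CDK4, the other cyclin D partner, spanned 8.09 to 8.82 with its highest value on scramble control 2. CDK2 lay between 5.94 and 6.70 except on scramble control 1, where it was 4.53.

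Of 12 measured RB family, E2F and DP genes, 3 were separated and higher on the arrays labelled CtBP1 knockdown than on scramble, and 4 on CtBP2 knockdown, with 0 lower in either. Of all genes, 6.76% were separated and higher and 7.59% lower in the first comparison, and 19.3% and 21.7% in the second. E2F1 was 0.61 ± 0.20 higher on the arrays labelled CtBP1 knockdown (limma adjusted p = 0.734), and on CtBP2 knockdown it was also separated, 0.44 higher. RBL1, which encodes the pocket protein p107, was 0.74 ± 0.20 higher on CtBP2 knockdown (limma adjusted p = 0.372), and E2F7, a repressing E2F, 0.87 ± 0.25 (limma adjusted p = 0.387). RBL1 had 5.48 and 5.65 with CtBP2 knockdown against 4.55 and 5.10 with scramble, and E2F7 6.71 and 6.95 against 5.60 and 6.32. Scramble control 1 was the lowest array for both, and without it the differences were 0.47 for RBL1 and 0.51 for E2F7. On the arrays labelled CtBP1 knockdown RBL1 was also separated, 0.38 ± 0.18 higher than on scramble, while E2F7 differed by 0.06. RB1 itself overlapped in all 3 comparisons, between 7.01 and 8.08. None of these lists held a gene past the adjusted threshold.

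Of 11 genes for ubiquitin ligase parts that degrade G1 cyclins or inhibitors, 3 were separated and higher and 1 lower on CtBP2 knockdown than on scramble, beside 19.3% and 21.7% of all genes. FBXW7, which targets cyclin E for degradation, differed by 0.31 ± 0.13 (limma adjusted p = 0.495). Its signals (2.71 to 3.15) lay within those of the tissue-restricted genes on every array. SKP1, a shared ligase subunit, differed by 0.53 ± 0.26 (limma adjusted p = 0.527), or 0.26 without scramble control 1. SKP2, which targets p27, overlapped in all comparisons at 7.25 to 7.93. Of 3 further genes grouped with the CDK inhibitors, CDKN1A, the p53-induced inhibitor p21, spanned 2.73 to 3.61 with its highest value on scramble control 1, and CDKN2D spanned 2.74 to 3.03. CDKN3, a CDK phosphatase that is high in dividing cells, was 3.40 on scramble control 1 and 6.57 to 7.16 elsewhere.

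Of 23 measured upstream regulators, 6 were separated and higher and 3 lower on CtBP2 knockdown than on scramble, shares near the 19.3% and 21.7% of all genes. MYC, an activator of CCND2 and CCNE1 among others, had 5.31, 6.08 and 5.49 in the clones labelled CtBP1 knockdown, 6.17 and 5.58 in the CtBP2 knockdown clones, and 4.09 and 5.39 in the scramble clones. MXD4, a MYC antagonist, was 0.54 ± 0.14 higher on the arrays labelled CtBP1 knockdown (limma adjusted p = 0.734), and SMAD4, which transmits the TGF-beta signal, differed by -0.38 ± 0.13 on CtBP2 knockdown (limma adjusted p = 0.435). Both were separated in the same direction in the other knockdown, MXD4 by 0.33 on CtBP2 knockdown and SMAD4 by -0.24 on the arrays labelled CtBP1 knockdown. Of 13 measured neighbours of CCND1, CCNE1 and CDKN1C, 4 were separated and higher on CtBP2 knockdown than on scramble and 0 lower. The shares of all genes were 19.3% and 21.7%. Among the neighbours of CCNE1 on chromosome 19, URI1 read 7.72 and 7.56 with CtBP2 knockdown, against 7.30 and 7.17 with scramble, and POP4 5.68 and 5.93 against 4.80 and 5.39. PLEKHF1 (2.90 and 2.70 against 2.87 and 2.66) and C19orf12 (3.27 and 3.26 against 2.87 and 3.74) overlapped. Next to CCND1, LTO1 had 3.48 and 3.37 against 2.68 and 3.15. LTO1, PLEKHF1 and C19orf12 lay within the signals of the tissue-restricted genes on every array. For LTO1 (up to 3.48) and C19orf12 (up to 3.74) this rests on CRYAA, at 3.80 on scramble control 1. All other values of the tissue-restricted genes were at most 3.27.

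**Figure D3:**
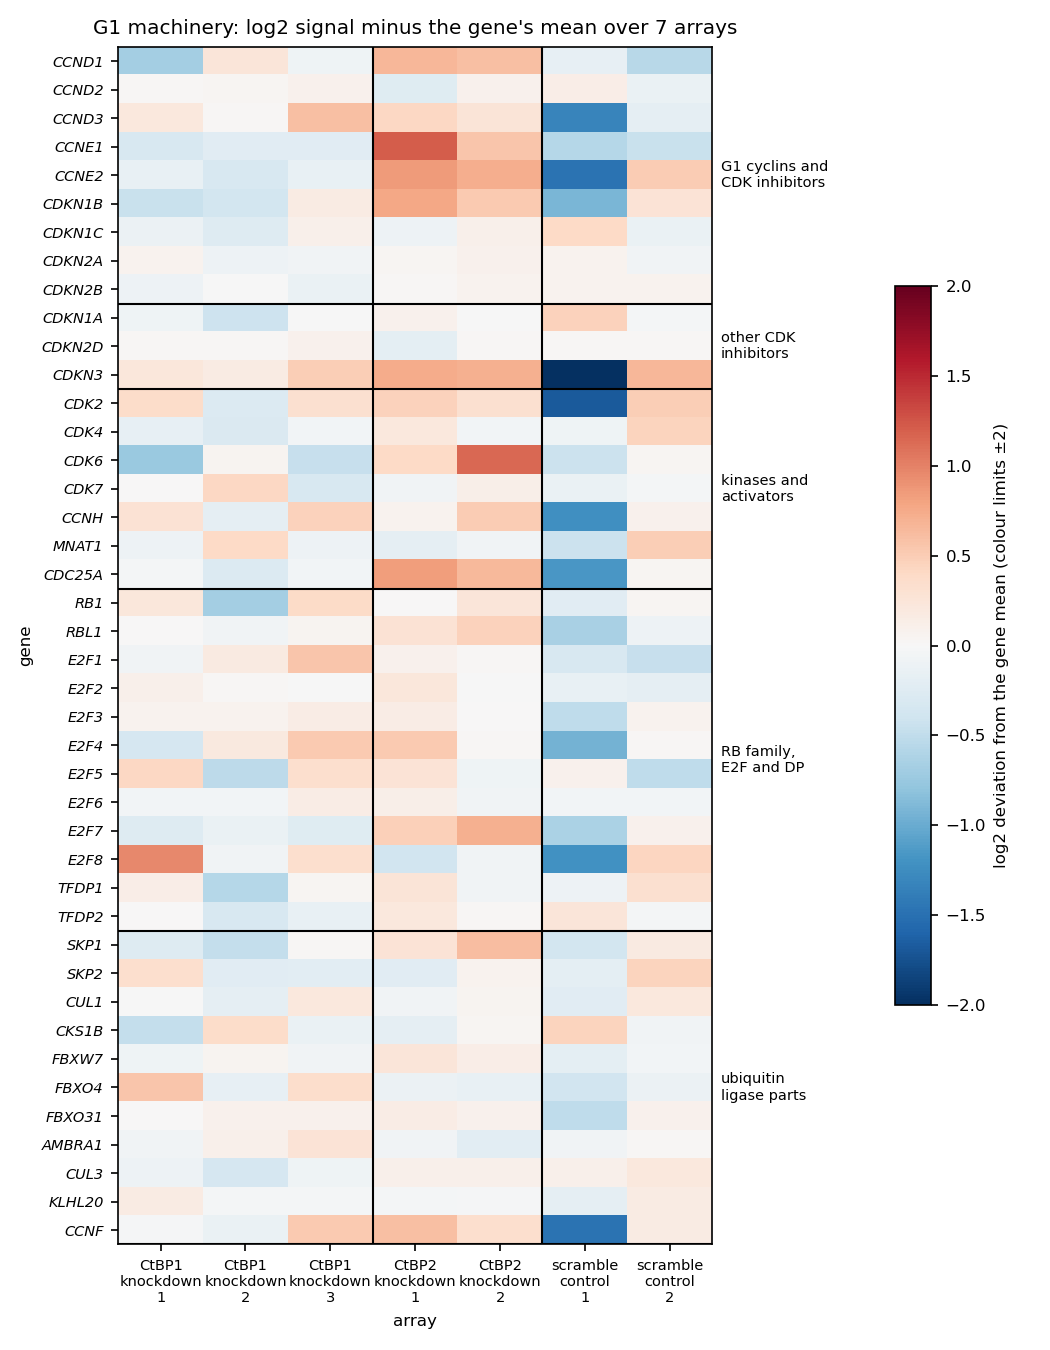
Log2 signal minus each gene's mean over the 7 arrays (colour, limits ±2) for the G1 cyclins and CDK inhibitors and 4 lists of the G1 machinery (rows), with arrays in columns. Genes red on both CtBP2 knockdown arrays include CCND1, CCNE1, CCNE2, CDKN1B, CDK6, CDC25A, E2F7, CDKN3, CCNF and CDK2. Those blue on scramble control 1 include CCND3, CCNE2, CDKN1B, CDK2, CDKN3, CCNF, CDC25A, CCNH, E2F4 and E2F8, so the sets overlap.

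E2F targets, the genes of S phase entry, had, with all 7 arrays, the same order of groups as the E-type cyclins. On this list, 17 of 20 measured genes were separated and higher on CtBP2 knockdown than on scramble and 0 lower, with a median of 0.87, where 19.3% and 21.7% of all genes were. On the arrays labelled CtBP1 knockdown 14 of 20 were separated and lower than on CtBP2 knockdown, with a median of -0.52, where 15.8% of all genes were. None passed the adjusted threshold. SLBP, the histone mRNA-binding protein, had 5.78, 5.98 and 5.95 in the clones labelled CtBP1 knockdown and 6.48 and 6.37 in the CtBP2 knockdown clones, against 5.82 and 5.95 on scramble. The median deviation of this list from the gene means was -0.12, -0.07 and 0.02 in the clones labelled CtBP1 knockdown, 0.47 and 0.42 in the CtBP2 knockdown clones, and -0.85 and 0.11 in the scramble clones. Leaving out scramble control 1, its median difference was -0.07 for the arrays labelled CtBP1 knockdown, against 0.30 with it, and 0.45 for CtBP2 knockdown.

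With all 7 arrays the G2/M list had the same order of groups, and it lost that order without scramble control 1. All 25 measured genes had a higher mean on CtBP2 knockdown than on scramble, with a median of 1.08 beside -0.02 over all genes. Of these, 8 were separated and higher and 0 lower, beside 19.3% and 21.7% of all genes. Leaving out scramble control 1 gave a median of -0.18, and leaving out scramble control 2 gave 2.13. The median deviation was 0.17, -0.05 and 0.26 in the clones labelled CtBP1 knockdown, 0.39 and 0.38 in the CtBP2 knockdown clones, and -1.66 and 0.57 in the scramble clones. Scramble control 1 was thus low in CCNE2, CDKN1B and CCND3 and lowest of all arrays in the median of this list, and the part of that array's state in the cyclin differences was not tested. CCNE1 differed by a similar amount with and without that array.

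**Figure D4:**
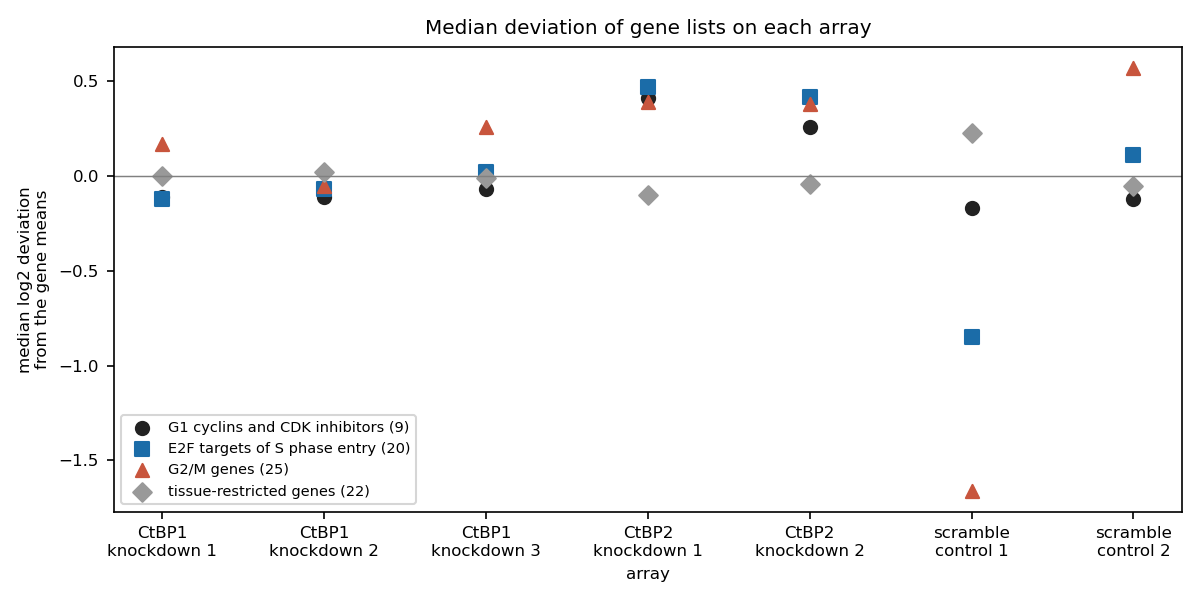
Median over each list of the log2 deviation from the gene's mean over 7 arrays (y axis), for each array (x axis), with the number of genes in the legend. E2F targets are highest on both CtBP2 knockdown arrays (0.47 and 0.42), and both dividing-cell lists are lowest on scramble control 1 (-0.85 and -1.66).

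Likeness of pattern was measured with Pearson's r over the 7 arrays and again over the 6 without scramble control 1, among 6814 genes with an SD of at least 0.3, ranked by the smaller of the values. These values describe 7 arrays that share groups, and with so many genes compared high values are common. Nearest to CCNE1 was PDCD1LG2, which encodes the immune checkpoint ligand PD-L2 (r = 0.992 and 0.995). Nearest to CCND1 was the ribosomal protein gene RPS7 (0.978 and 0.981), to CCND3 the mitochondrial ribosomal protein gene MRPL34 (0.995 and 0.97), to CCNE2 the ribosome biogenesis gene UTP20 (0.992 and 0.988) and to CDKN1B GREB1L (0.987 and 0.987). PDCD1LG2 had 2.50, 2.72 and 2.69 in the clones labelled CtBP1 knockdown, 3.73 and 3.26 in the CtBP2 knockdown clones, and 2.29 and 2.51 in the scramble clones. PDCD1LG2 and GREB1L (2.36 to 3.45) lay within the signals of the tissue-restricted genes on every array. Their highest values did so only through CRYAA, at 3.80 on scramble control 1, as the other values of those genes were at most 3.27. The next in rank were LBHD1 for CCNE1, RABAC1 for CCND1, SUGP2 for CCND3, ATP2A2 for CCNE2 and PARD6G for CDKN1B. The genes that spanned at most 0.65 over all arrays had VTRNA1-2 (0.961 and 0.89, for CDKN1C), LCE3A (0.857 and 0.877, for CCND2), MALL (0.936 and 0.989, for CDKN2A) and TMTC2 (0.982 and 0.979, for CDKN2B) nearest.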

How the data were processed

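The deposited table holds log2 signals of 33297 transcript clusters on 7 arrays, which the authors made by RMA in Affymetrix's Expression Console; the submitters' processing notes name both without versions. RMA corrects the background, equalises probe distributions and summarises probes by median polish, so small differences can be compressed. No genome build for the array annotation is given in the sources used here. Groups and clone numbers came from the sample titles.

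Clusters with exactly 1 symbol (19181) were kept, symbols were updated through Entrez identifiers with RefSeq GRCh38.p14, and the brightest cluster per gene was used, with no filter on dim genes. Using limma 3.58.1 (lmFit, eBayes) in R 4.3.3, all 7 arrays entered 1 fit of the 3 group means, with 4 residual degrees of freedom. A simulation with a common spread and no outlying array checked only that the fit returned planted mean differences. P-values are two-sided and adjusted over all 17958 genes at a threshold of 0.05. Groups are separated when every array of one exceeds every array of the other. Array data carry no read depth, so the number of arrays limits the precision. An identical value recurred on some arrays for 40% of all genes, among them 5 of the 9 genes described: CCNE1 (CtBP1 knockdown 2 and 3), CCNE2 (CtBP1 knockdown 1 and 3), CCND2, CDKN1C and CDKN2B.

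Genes described with full statistics were those with separated groups or an unadjusted p under 0.05. From each of 15 lists, up to 3 separated genes with the smallest p could be named, besides the core G1 genes. The genes described, the lists and the tests were chosen with earlier results of these data known. Alternatives were renewed quantile normalization, median centring, a filter on the dimmest 25% of genes, the mean of all clusters, eBayes with a trend or robust, array weights, fits restricted to the groups compared, a block for the clone number, and each array left out in turn. Figures were drawn with matplotlib 3.10.9.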

Additional observations from a re-analysis of the deposited data

How the results depend on the processing

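The small number of arrays limits the precision of every difference. Of 423 recomputed differences of the 9 genes under the alternatives, 394 kept their direction and their side of the threshold, 6 newly passed it (all without scramble control 2) and 23 changed sign. CCNE1 was higher on CtBP2 knockdown than on scramble under every alternative tried (1.06 to 1.72, adjusted p from 0.0279 to 0.93), as were CCND1, CCND3, CCNE2 and CDKN1B. Under quantile normalization the sign changed for CCND1 (-5.6e-04) and CDKN2A (0.06) on the arrays labelled CtBP1 knockdown, for CCND2 (0.07) and CDKN2B (0.11) on CtBP2 knockdown, and for CCND3 (0.05) between the knockdowns. The mean of all clusters turned CCND1 to -0.06 on the arrays labelled CtBP1 knockdown. Leaving out 1 array, the differences of genes that changed sign ranged, on the arrays labelled CtBP1 knockdown against scramble, from -0.02 to 0.44 for CCND1, -0.08 to 0.18 for CCND2, -0.71 to 1.28 for CCNE2, -0.50 to 0.71 for CDKN1B, -0.48 to 0.04 for CDKN1C and -0.09 to 0.04 for CDKN2A. On CtBP2 knockdown against scramble they ranged from -0.25 to 0.08 for CCND2 and -0.39 to 0.13 for CDKN1C, and between the knockdowns from -0.03 to 0.29 for CCND2, -0.21 to 0.07 for CCND3 and -0.19 to 0.01 for CDKN1C. The cause was not tested.

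Over all genes, limma called 0 for the arrays labelled CtBP1 knockdown (0 to 3262 without 1 array, the highest without scramble control 2) and 1 for CtBP2 knockdown (0 to 3952 without 1 array, the highest again without scramble control 2). For CtBP2 knockdown it was 0 with robust eBayes, with only the groups compared and with array weights. Between the knockdowns it called 0, but 7 after quantile normalization and 272 with array weights, none of them among the 9 genes. Under median centring 15.9% of all genes were separated and higher and 34% lower on CtBP2 knockdown, where the deposited values gave 19.3% and 21.7%. With the clone number as a replicate block, the count for CtBP2 knockdown was 0, CCNE1 differed by 1.39 (adjusted p = 0.589) and CDKN1B on the arrays labelled CtBP1 knockdown by -0.09. Deviations of same-numbered arrays correlated at -0.354 to 0.098 over genes. In a group of 2 arrays the deviations mirror each other, so other pairings give the same values with opposite sign. This check therefore cannot decide on pairing. The labels do not state that the numbers pair the arrays, so they were not taken to do so.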
